A study of Homo sapiens with 12 samples.

Results

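The genes described here are 34 long non-coding RNAs (lncRNAs) that carry small RNAs in their introns or exons: the 28 genes whose symbol is SNHG (small nucleolar RNA host gene) followed by a number, together with GAS5, ZFAS1, DANCR, EPB41L4A-AS1, MIR17HG and MIR22HG. They were chosen by symbol, with earlier results of these data known, and all 34 were found among the 60675 gene IDs of the count table. RNA was measured by sequencing in SW1783, an established human astrocytoma line, 24 h after treatment with Aconitum carmichaeli Debeaux (ACD), a herbal medicine given as its water extract. There were 4 groups of 3 libraries: vehicle, which was PBS with 2% DMSO, and ACD at the low dose of 20, the medium dose of 100 or the high dose of 500 µg/mL. The herb is taken from the sample titles and treatment labels, because the treatment protocol deposited with the samples describes Poria cocos. A single cell line was used, and the labels do not say whether libraries of a group came from separate cultures, so p-values measure the spread between these libraries, which may be technical.

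Small nucleolar RNAs (snoRNAs) guide chemical changes of other RNAs, box C/D snoRNAs mostly ribose methylation and box H/ACA snoRNAs pseudouridylation, and their relatives in Cajal bodies are called scaRNAs. Most are cut out of introns, and in host genes of the SNHG kind the spliced exons that remain hold only short reading frames. Ribosomes that stop at such a frame can send the RNA into nonsense-mediated decay (NMD), so the spliced host RNA is usually short-lived and its level depends on translation as well as on transcription. Many host genes also begin with a 5′ terminal oligopyrimidine (5′TOP) tract, the feature that ties ribosomal protein mRNAs to growth signals. MIR17HG and MIR22HG host microRNAs (miRNAs), which are cut from the host transcript in the nucleus.

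Library totals lay between 18863863 and 24200576 counts. Vimentin (VIM), CD44 and SOX9 were abundant in every library, at no less than 84469, 43372 and 1153 normalised counts, a scale on which DESeq2 size factors even out library depth. The mature astrocyte markers GFAP, S100B and AQP4 were at or near 0, with highest values of 5.26, 5.12 and 0. SOX2, FABP7 and ALDH1L1 of the same list were near 0 as well, with highest values of 1.86, 0.962 and 1.87. The name of the line is taken from the sample titles and does not rest on these markers. Of 12 astrocyte and glioma markers, 5 had a vehicle mean of at least 10, as did 2 of 4 for neurons, 2 of 4 for microglia and blood, 2 of 4 for epithelium, 1 of 4 for oligodendrocytes and 1 of 3 for endothelium. Several of these moved between vehicle and high dose, with lower means for SLC1A3 (690 to 126), SNAP25 (704 to 167), PTPRC (275 to 84.8) and KRT18 (4600 to 1575) and higher ones for SYT1 (638 to 868), MBP (143 to 258) and CD68 (2864 to 3953), and whether this had a part in the lncRNA results was not tested. In such bulk samples fewer cells of a kind and less RNA per cell cannot be told apart.

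Levels differed widely between host lncRNAs. In the annotation used here, 4 of the 6 highest were hosts of box C/D snoRNAs alone, as were 12 of all 34. That annotation left GAS5, also among the 6 highest, without a class, so it is in neither the 4 nor the 12. Levels are compared between genes as normalised counts per kb of merged exon length with vehicle. SNHG32 (ENSG00000204387, chromosome 6, 31834608 to 31839766, GRCh38, host of SNORD48 and SNORD52) led with 1595, and SNHG29 (ENSG00000175061, chromosome 17, 16438767 to 16480249, host of SNORD49A, SNORD49B and SNORD65) followed with 601. SNHG16 (ENSG00000163597, chromosome 17, 76557727 to 76670985, host of SNORD1A to SNORD1C) at 304 and MIR22HG (ENSG00000186594, chromosome 17, 1711447 to 1717174) at 302 did not differ beyond their spread, nor did GAS5 at 259 and SNHG19 (ENSG00000260260, chromosome 16, 2154792 to 2155405, host of SNORD60) at 244. At the other end stood MIR17HG at 1.72 per kb. These figures depend on the annotated length, which was taken from GENCODE v44. With the length of the Ensembl canonical transcript in place of all merged exons, an alternative chosen after seeing the data, SNHG29 came first at 12135, SNHG16 stood at 3522, SNHG32 at 2728 and GAS5 at 1664. On that scale SNHG19 ranked 8, MIR22HG 9 and MIR17HG 29 of the 34. The plot of levels per kb shows the 32 of 34 that averaged 10 normalised counts or more. SNHG25 had at most 3 counts in a library and SNHG27 at most 1, and neither was tested further.

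**Figure D1:**
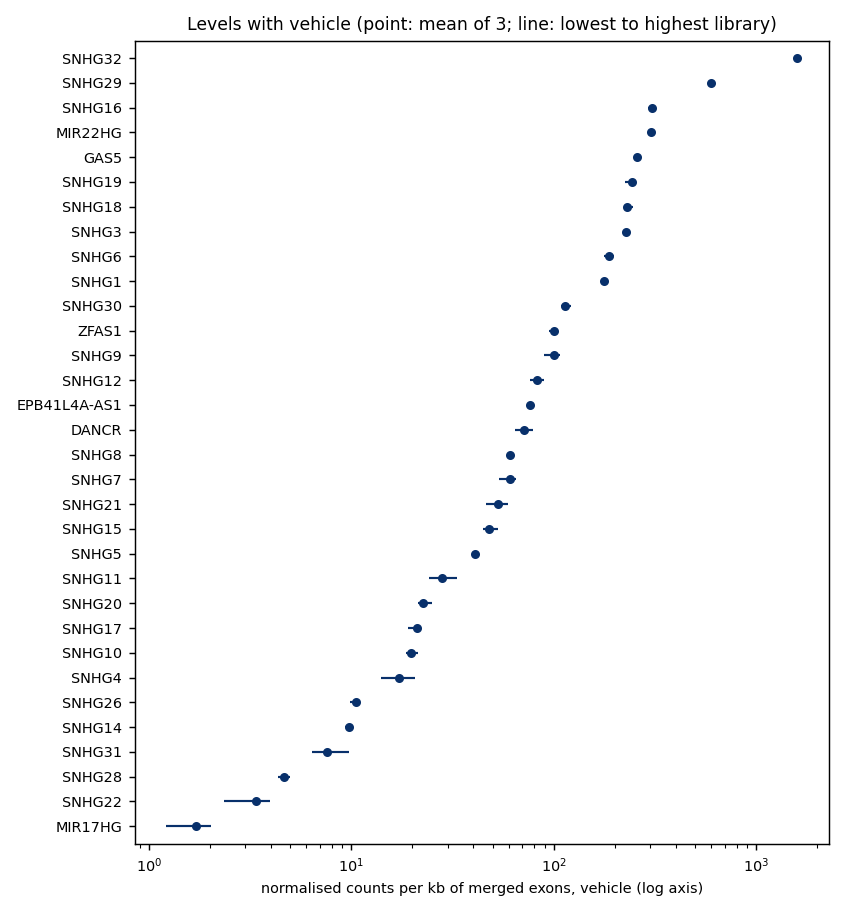
Levels of the 32 host lncRNAs that averaged 10 normalised counts or more, in vehicle-treated SW1783 cells, as normalised counts per kb of merged exons on a log axis. Points are means of 3 libraries and lines run from the lowest to the highest library. SNHG32 at 1595 and SNHG29 at 601 stand above the rest, and MIR17HG is lowest at 1.72.

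A pyrimidine run that opens with C, of the kind found at 5′TOP starts, was looked for as the letters CTTTT on the sense strand within 20 bases of the RefSeq start. Promoter sequences were matched for 30 of the 34 genes, and 7 of these 30 (23.3%) held it, against 4.87% of all 35116 RefSeq promoters. This is a description of letters and does not show where transcription began in these cells. Annotated starts of RefSeq and GENCODE lay within 100 bases of each other for 18 of the 30 genes. For SNHG29, SNHG32 and SNHG5, printed below, they lay 220, 308 and 199 bases apart. The windows of 50 bases around the RefSeq start (GRCh38.p14) are printed for 5 of the 7 hosts with the tract, the 4 with the highest levels per kb and SNHG5, that is SNHG16, SNHG19, SNHG29, SNHG32 and SNHG5, with CTTTT in capitals. They lie at chr17:76557739-76557788 (plus strand), chr16:2155334-2155383 (minus strand), chr17:16438962-16439011 (plus strand), chr6:31834891-31834940 (plus strand) and chr6:85678709-85678758 (minus strand).
SNHG16: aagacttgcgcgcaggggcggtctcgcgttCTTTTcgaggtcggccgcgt
SNHG19: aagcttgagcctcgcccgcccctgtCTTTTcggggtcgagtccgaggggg
SNHG29: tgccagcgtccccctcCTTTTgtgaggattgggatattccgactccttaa
SNHG32: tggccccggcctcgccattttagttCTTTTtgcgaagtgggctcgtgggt
SNHG5: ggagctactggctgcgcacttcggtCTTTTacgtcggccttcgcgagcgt
The other 2 hosts with the tract were SNHG21 and SNHG26. It was not found for GAS5, whose annotated starts lay 163 bases apart. Nor was it found for DANCR, MIR17HG, SNHG7, SNHG17 or SNHG30. ZFAS1 and SNHG14 did not hold it either, but their annotated starts lay 464 and 154975 bases apart, so the GENCODE start was not searched. SNHG15 was not among the genes with a matched promoter. The E-box letters CACGTG, searched on both strands over the 300 bases of each promoter, were present in SNHG7 and SNHG30, 6.67% of the 30 against 7.26% of all promoters. The C/EBP-ATF response letters TGATGNAA, also on both strands, were present in 0 of the 30 and in 3.62% of all promoters.

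The first question was whether the high dose changed these lncRNAs. It moved them in both directions: GAS5, ZFAS1, SNHG7, SNHG15, SNHG17 and MIR17HG were higher than with vehicle by at least 1.5-fold, and DANCR, SNHG14 and SNHG30 were lower by at least as much. Differentially expressed genes (DEGs) were those with an adjusted p under 0.05 in the Wald test of DESeq2 and a fold change over 1.5. By that definition 9 of the 32 tested host lncRNAs (28.1%) were DEGs, against 18.2% of all 19453 tested genes, 6 of them higher (background 8.66%) and 3 lower (background 9.57%). By adjusted p alone 22 of 32 (68.8%) differed, against 46.5% of all genes, 13 higher (background 23.9%) and 9 lower (background 22.6%). The high dose libraries lay wholly above the vehicle libraries for 14 of the 32 (background 30.6%) and wholly below for 12 (background 29.9%). All 32 averaged at least 10 normalised counts, while the tested genes reached down to a mean of 1.72, where fewer changes can pass. Background shares, here and below, were not matched for level. The median log2 fold change of the 32 was 0.08, and that of the 15282 genes with the same minimum level was 0.00. Of the 22 that passed by adjusted p, 14 also passed in all 18 alternative fits, 9 higher and 5 lower.

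**Figure D2:**
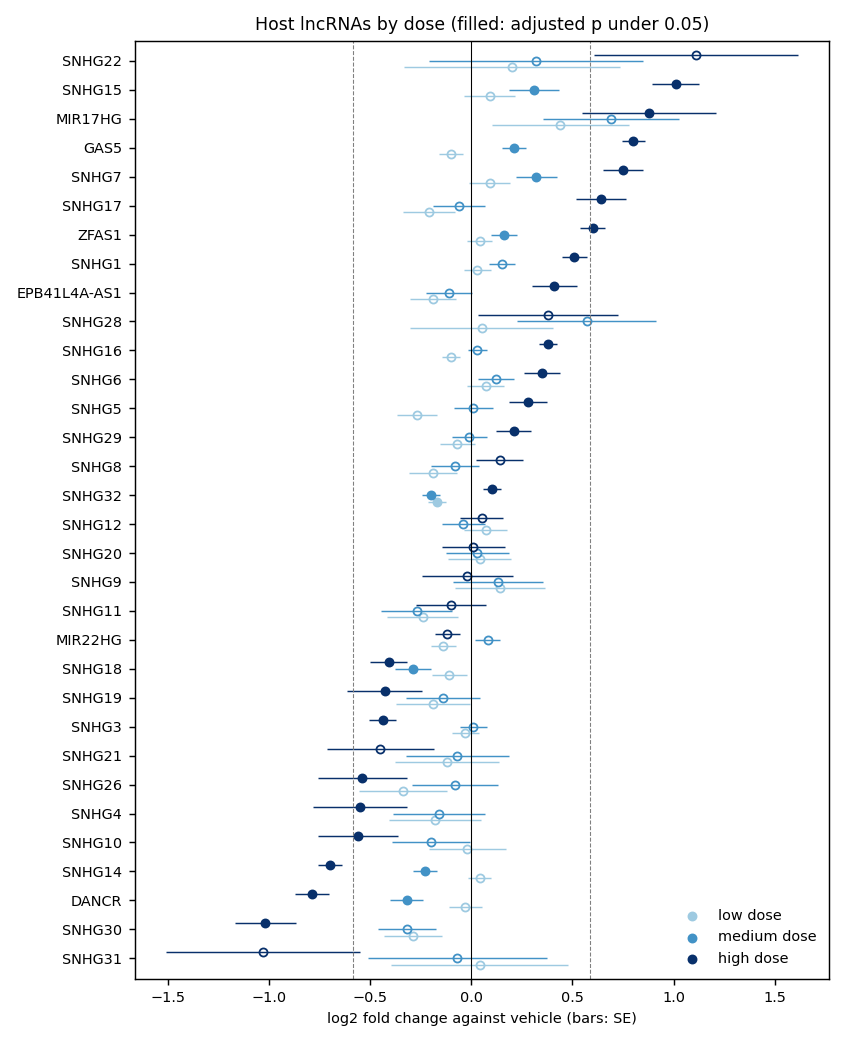
Log2 fold changes against vehicle, with standard errors, of 32 host lncRNAs at the low, medium and high dose of ACD, ordered by the high dose value. Filled points have a DESeq2 adjusted p under 0.05 and dashed lines mark a fold change of 1.5. At the high dose 6 filled points lie beyond the right line and 3 beyond the left one.

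GAS5 (growth arrest specific 5; ENSG00000234741, chromosome 1, 173858559 to 173868882) is a 5′TOP lncRNA known to accumulate when growth or translation stops. It held 1319, 1235 and 1279 normalised counts with vehicle, 1189, 1153 and 1234 with the low dose, 1507, 1472 and 1464 with the medium dose and 2115, 2413 and 2125 with the high dose. The medium and high dose libraries all lay above all vehicle libraries, and the low dose libraries all lay just below the lowest vehicle library. At the high dose the rise was 1.74-fold (log2 fold change 0.80, SE 0.0564, DESeq2 adjusted p 4.12e-44).

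ZFAS1 (ENSG00000177410, chromosome 20, 49278178 to 49299600), the host of the SNORD12 family, had 787, 871 and 844 normalised counts with vehicle, 841, 849 and 887 with the low dose, 996, 890 and 920 with the medium dose and 1282, 1239 and 1281 with the high dose. The high dose libraries were separate from all the others. Its high dose rise was 1.52-fold (log2 fold change 0.60, SE 0.0621, DESeq2 adjusted p 3.56e-21), close to the threshold. Without vehicle replicate 1 the log2 fold change was 0.56, under 1.5-fold, and the adjusted p was 2.48e-14.

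The other 3 snoRNA hosts that rose past 1.5-fold carry box H/ACA snoRNAs. SNHG15 (ENSG00000232956, chromosome 7, 44983019 to 44986961), host of SNORA9, rose 2.01-fold. Its libraries held 208, 177 and 182 normalised counts with vehicle, 191, 204 and 207 with the low dose, 253, 207 and 246 with the medium dose and 369, 400 and 367 with the high dose (high dose log2 fold change 1.01, SE 0.118, DESeq2 adjusted p 1.60e-16). SNHG7 (ENSG00000233016, chromosome 9, 136721366 to 136728184), host of the SNORA17 pair, went from 261, 319 and 314 with vehicle through 339, 313 and 301 and then 389, 372 and 359 to 484, 521 and 502 with the high dose (0.75, SE 0.0982, DESeq2 adjusted p 1.46e-13). For both genes the high dose libraries lay above all 9 others, and for SNHG7 the medium dose libraries already lay above the vehicle libraries.

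SNHG17 (ENSG00000196756, chromosome 20, 38419638 to 38435409), host of the SNORA71 family, rose at the high dose and did not pass at the lower doses. Its counts were 263, 228 and 259 with vehicle, 257, 206 and 183 with the low dose, 226, 244 and 248 with the medium dose and 405, 409 and 354 with the high dose. The first 3 groups overlapped, and the high dose stood apart from them. The high dose log2 fold change was 0.64 (SE 0.123, DESeq2 adjusted p 8.64e-07), and without vehicle replicate 2 it was 0.57 (adjusted p 1.99e-04), short of the fold threshold.

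MIR17HG (ENSG00000215417, chromosome 13, 91347686 to 91397592) is the primary transcript of the miR-17-92 cluster, a target of MYC. It was the least abundant of the DEGs, with 24.6, 15.8 and 26 normalised counts with vehicle, 37.5, 25.5 and 26.2 with the low dose, 30.1, 38.2 and 37.7 with the medium dose and 34.7, 45 and 41.2 with the high dose. The high dose and vehicle libraries did not overlap, while the 3 dosed groups overlapped each other. Its log2 fold change of 0.88 had a wide SE of 0.331 (DESeq2 adjusted p 0.0183), and the adjusted p was 0.144 without vehicle replicate 2, 0.0929 without high replicate 2 and 0.0559 without high replicate 3. In the test over all 4 groups at once it did not pass (DESeq2 adjusted p 0.0986).

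The mature miRNAs of this cluster are printed because the counts hold the host RNA and not the miRNAs cut from it, and the main arms fall into 4 groups by seed. They are RefSeq records on GRCh38.p14, plus strand, between chr13:91350618-91351382, with the seed, bases 2 to 8, in capitals.
hsa-miR-17-5p: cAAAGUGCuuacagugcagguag
hsa-miR-20a-5p: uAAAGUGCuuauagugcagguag
hsa-miR-18a-5p: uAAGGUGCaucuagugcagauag
hsa-miR-19a-3p: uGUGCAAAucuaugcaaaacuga
hsa-miR-19b-3p: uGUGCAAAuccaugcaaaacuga
hsa-miR-92a-3p: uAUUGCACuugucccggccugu
The seed AAAGUGC is shared by hsa-miR-17-5p and hsa-miR-20a-5p, and GUGCAAA by hsa-miR-19a-3p and hsa-miR-19b-3p.

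**Figure D3:**
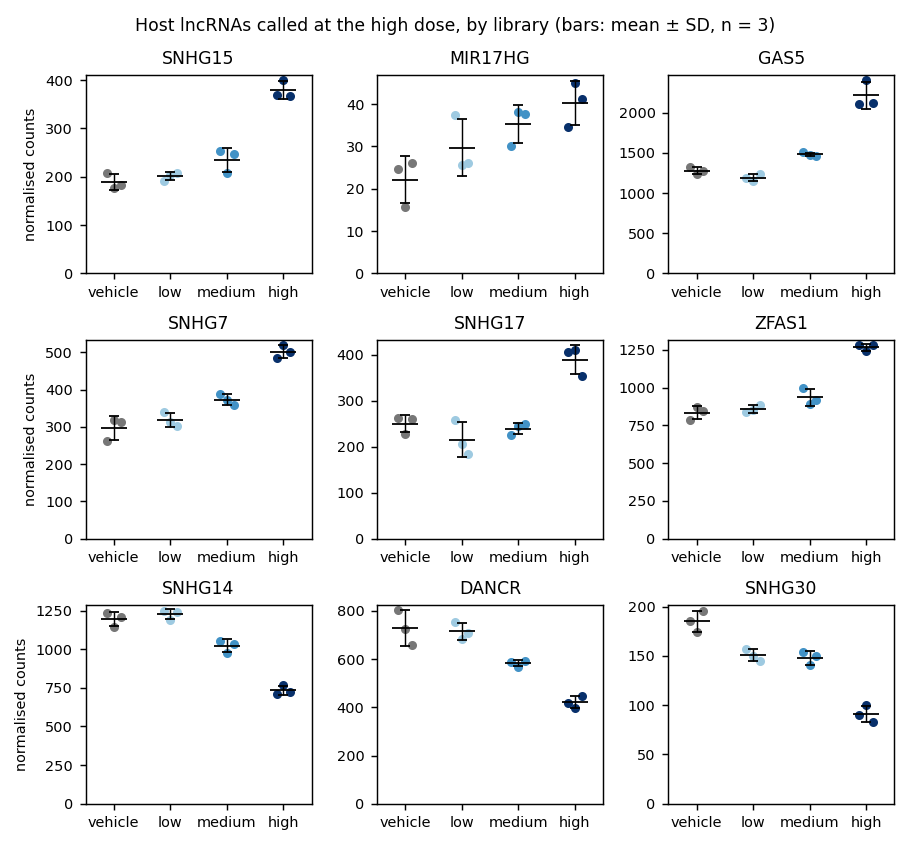
Normalised counts per library, with mean ± SD of 3 libraries, of the 9 host lncRNAs called as DEGs with the high dose, by dose group, each axis starting at 0. For all 9 the high dose libraries lie apart from the vehicle libraries, SNHG15 at 367 to 400 against 177 to 208 and SNHG30 at 83.2 to 100 against 174 to 196.

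Among the lncRNAs that fell, DANCR (ENSG00000226950, chromosome 4, 52712325 to 52723623), named for its role in holding back differentiation and host of SNORA26, had 804, 725 and 657 normalised counts with vehicle, 753, 684 and 706 with the low dose, 588, 568 and 594 with the medium dose and 419, 396 and 446 with the high dose. The vehicle and low dose libraries overlapped, and the medium and high dose libraries each lay below them and apart from each other. The fall at the high dose was 1.73-fold (log2 fold change -0.79, SE 0.0852, DESeq2 adjusted p 1.28e-19).

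SNHG14 (ENSG00000224078, chromosome 15, 24978583 to 25420336) is the long transcript of the imprinted Prader-Willi region that hosts SNORD116 and runs antisense to UBE3A. It held 1236, 1146 and 1206 normalised counts with vehicle, 1248, 1188 and 1240 with the low dose, 1056, 975 and 1035 with the medium dose and 713, 768 and 720 with the high dose (high dose log2 fold change -0.70, SE 0.0611, DESeq2 adjusted p 2.43e-29). Its order by dose resembled that of DANCR, with the low dose overlapping vehicle and the other doses below both. UBE3A, the gene it overlaps on the other strand, had a mean of 2947 normalised counts with vehicle and 3133 at the high dose.

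SNHG30 (ENSG00000267321, chromosome 17, 35568050 to 35574900), host of SNORD7, fell the furthest of the DEGs. Its libraries had 185, 174 and 196 normalised counts with vehicle, 157, 150 and 145 with the low dose, 154, 141 and 150 with the medium dose and 90.3, 100 and 83.2 with the high dose. The low and medium dose libraries overlapped each other and lay below the vehicle libraries, with the high dose lower again. The fall at the high dose was 2.03-fold (log2 fold change -1.02, SE 0.152, DESeq2 adjusted p 1.44e-10).

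Changes under 1.5-fold were found in other abundant hosts and in EPB41L4A-AS1. SNHG16 had 1830, 1679 and 1754 normalised counts with vehicle and 2248, 2329 and 2264 at the high dose, with no overlap (log2 fold change 0.38, SE 0.0442, DESeq2 adjusted p 7.12e-17). SNHG29 went from 5254, 5335 and 5539 to 6360, 6579 and 5764 (0.21, SE 0.0865, DESeq2 adjusted p 0.0306). That change did not pass without vehicle replicate 1 (adjusted p 0.107), vehicle replicate 2 (0.0944), high replicate 1 (0.0978) or high replicate 2 (0.147). EPB41L4A-AS1 (ENSG00000224032, chromosome 5, 112160526 to 112164818), host of SNORA13, went from 327, 326 and 327 to 413, 475 and 414 (0.41, SE 0.111, DESeq2 adjusted p 6.38e-04), and its low and medium dose libraries, 239 to 322, all lay below the vehicle libraries.

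SNHG32 did not follow dose in one direction. Its libraries held 2890, 2856 and 2873 normalised counts with vehicle, 2566, 2564 and 2539 with the low dose, 2647, 2539 and 2303 with the medium dose and 3122, 3163 and 2978 with the high dose. Both lower doses lay wholly below the vehicle libraries and the high dose wholly above them. It fell with the low dose (log2 fold change -0.17, SE 0.0451, adjusted p 0.00981 in DESeq2), again with the medium dose (-0.20, SE 0.0452, adjusted p 5.95e-05), and from medium to high it rose by 0.31 (SE 0.0451, adjusted p 7.90e-11). Against vehicle the high dose rise was 0.10 (SE 0.0446, DESeq2 adjusted p 0.0432). It did not pass in 10 of 18 alternative fits, with adjusted p up to 0.175, among them those without any 1 of the 3 vehicle libraries, without high replicate 1 or 2, without medium replicate 2, without any 1 of the low dose libraries, and without DESeq2's filter on low means (0.0684).

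MIR22HG, the host of miR-22, moved differently. It had 953, 937 and 927 normalised counts with vehicle, 891, 858 and 811 with the low dose, 976, 1023 and 985 with the medium dose and 858, 839 and 898 with the high dose. The low and high dose libraries lay below the vehicle libraries and the medium dose libraries above them. No dose passed against vehicle (high dose log2 fold change -0.12, 95% interval -0.24 to 0.00, DESeq2 adjusted p 0.105), while the difference between high and medium dose did (-0.20, SE 0.0614, adjusted p 0.00332). Its mature miRNA on the guide arm (chr17:1713914-1713935, minus strand, GRCh38.p14) has a seed, in capitals, that none of those above share.
hsa-miR-22-3p: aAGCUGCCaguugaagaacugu

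SNHG19, short and abundant per kb, had 157, 156 and 137 normalised counts with vehicle and 104, 128 and 101 at the high dose (log2 fold change -0.43, SE 0.186, DESeq2 adjusted p 0.0445). It did not pass in 8 of 18 alternative fits, with adjusted p up to 0.156, among them those without vehicle replicate 1 or 2, high replicate 1 or 3, medium replicate 2 or low replicate 2.

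The remaining host lncRNAs are named here outside the rule that chose the genes above, after their values were seen. SNHG1, host of a row of box C/D snoRNAs with SNORD22 among them, rose by 0.51 on the log2 scale (SE 0.0628, DESeq2 adjusted p 5.97e-15), and SNHG6 (0.35, adjusted p 1.91e-04) and SNHG5 (0.28, adjusted p 0.00728) rose as well. SNHG5 did not pass without high replicate 2 (0.102). SNHG3 fell (-0.44, SE 0.0671, DESeq2 adjusted p 2.86e-10), as did SNHG18 (-0.41, adjusted p 1.46e-05).

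Low counts limited the rest of the falls. SNHG10 (-0.56, DESeq2 adjusted p 0.0127), SNHG4 (-0.55, adjusted p 0.041) and SNHG26 (-0.54, adjusted p 0.0319) had vehicle means of 107, 77.2 and 79.6 normalised counts. SNHG10 did not pass without vehicle replicate 3 or high replicate 2 or 3 (adjusted p up to 0.0862). SNHG26 did not pass in 7 of 18 alternative fits (up to 0.164), those without any 1 vehicle library or without high replicate 2 or 3 among them. SNHG4 did not pass in 12 of 18 (up to 0.252), those without vehicle replicate 2 or 3, high replicate 1 or 2, or any 1 medium or low dose library among them.

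For 10 of the 32 no difference passed at the high dose, and the intervals show how much was left undecided. SNHG12 differed by 0.05 (95% interval of the log2 fold change -0.16 to 0.25), SNHG20 by 0.01 (-0.30 to 0.31), SNHG8 by 0.14 (-0.09 to 0.37) and SNHG11 by -0.10 (-0.44 to 0.24), so changes of 1.5-fold lay outside all 4 intervals. SNHG22, at 10.2, 10.5 and 6.24 normalised counts with vehicle and 23.2, 20.7 and 15 at the high dose, had the largest log2 fold change of the 32 in size and did not pass (1.11, SE 0.505, DESeq2 adjusted p 0.0586). The lowest was SNHG31 (-1.03, SE 0.48, DESeq2 adjusted p 0.0666). Both were separate from vehicle in all libraries, and both passed in the edgeR test (adjusted p 0.00679 and 0.0156).

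At the medium dose, with DESeq2, 0 of 30 tested host lncRNAs were DEGs, against 3.81% of 14082 genes, and edgeR called 1, MIR17HG (log2 fold change 0.70, edgeR adjusted p 0.0251). At an unadjusted p under 0.05 there were 11 of 34 in DESeq2, against 18.1% of all 30802 genes with a p. By adjusted p alone 8 of 30 (26.7%) differed, a share near that of all genes (29.5%), 4 higher (background 15.1%) and 4 lower (background 14.5%). GAS5 (0.21, SE 0.0578, DESeq2 adjusted p 0.00144), SNHG7 (0.32, adjusted p 0.00721), SNHG15 (0.31, adjusted p 0.0386) and ZFAS1 (0.16, adjusted p 0.0403) were higher, and DANCR (-0.32, adjusted p 7.00e-04), SNHG14 (-0.23, adjusted p 8.31e-04), SNHG18 (-0.29, adjusted p 0.00479) and SNHG32 were lower. GAS5, DANCR, SNHG14 and SNHG32 passed in all 18 alternative fits. SNHG7 did not pass without vehicle replicate 1 (0.117) or medium replicate 1 (0.051), nor SNHG18 without vehicle replicate 2 or medium replicate 1 (up to 0.0773). SNHG15 did not pass in 12 of the 18 fits (up to 0.193) and ZFAS1 in 13 (up to 0.252), in both cases including the fits without vehicle replicate 3, medium replicate 1 or 3, or any 1 of the high or low dose libraries. SNHG15 also missed it without vehicle replicate 2, and ZFAS1 without vehicle replicate 1 or medium replicate 2.

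At the low dose SNHG32 alone passed by adjusted p, 1 of 18 tested against 3.29% of 9304 genes, and 0 were DEGs in either DESeq2 or edgeR (background 0.118%). Host lncRNAs with means under 263 normalised counts had no adjusted p there. Unadjusted p-values under 0.05 numbered 5 of 34, against 5.01% of all genes. SNHG32 did not pass without vehicle replicate 1 (0.0839), vehicle replicate 2 (0.0576) or low replicate 3 (0.0651). Of the 18, 8 had low dose libraries wholly below the vehicle libraries (background 11.6%) and 0 wholly above (background 14.1%). These 8 were SNHG32, SNHG16, SNHG5, SNHG8, SNHG18, GAS5, MIR22HG and EPB41L4A-AS1, with log2 fold changes down to -0.27.

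The step from medium to high dose was tested directly. SNHG15 (log2 fold change 0.69, SE 0.116, adjusted p 1.68e-08 in DESeq2) and SNHG17 (0.70, SE 0.124, adjusted p 1.15e-07) were DEGs with higher counts at the high dose, and SNHG30 (-0.70, SE 0.156, adjusted p 3.77e-05) was a DEG with lower counts. That was 3 of 32 (9.38%), against 10.2% of 16467 genes, of which 4.58% were higher and 5.61% lower. By adjusted p alone 17 of 32 (53.1%) differed, against 40.9%, 12 of them higher (background 21.1%) and 5 lower (background 19.8%). GAS5 reached 0.58 (SE 0.0558, adjusted p 2.96e-24), just under the fold threshold, and EPB41L4A-AS1 0.52 (adjusted p 1.82e-05). The edgeR test called 5, adding SNHG22 and SNHG31, both with under 20 normalised counts on average. Over all 4 groups, the likelihood ratio test of DESeq2 passed 19 of 32, against 45.8% of all genes. These comparisons share libraries, the high and medium dose both being set against the same vehicle group.

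The hosts were next set out by what they carry in the GENCODE annotation. All 12 hosts of box C/D snoRNAs alone differed at the high dose by adjusted p (46.5% of all genes did), 7 higher and 5 lower, and 3 of them were DEGs (18.2% of all genes were), ZFAS1 higher and SNHG14 and SNHG30 lower. Of 10 tested hosts of box H/ACA snoRNAs alone, 6 differed, 4 higher and 2 lower. The 3 DEGs among them, SNHG7, SNHG15 and SNHG17, were all higher. DANCR, which carries the box H/ACA snoRNA SNORA26 and the miRNA MIR4449, was outside this group and fell (-0.79, DESeq2 adjusted p 1.28e-19). The median log2 fold change was 0.16 in the box C/D group and 0.06 in the box H/ACA group. The difference between the groups was not tested. Hosts of scaRNAs, of miRNAs or of more than 1 kind of small RNA were left out of the grouping. GAS5, a DEG that rose, and SNHG28 were left out because the annotation gave them no class. That gap does not show that GAS5 hosts no box C/D snoRNAs, and its log2 fold change of 0.80 is in neither median. The small RNAs themselves had few counts under their own gene IDs. Of 146 hosted RNAs in the table, 137 were at 0 in all 12 libraries. For reads counted under their own IDs, that allows up to 3 counts in a library at this depth by counting error alone. SNORA71B, in SNHG17, had the most, 3 to 10 counts in a library. All hosted RNAs together had 4 to 13.2 counts in a library, while the hosts had 18431 to 27446. Many hosted RNAs, those of SNHG1 among them, overlap merged exons of their host in the annotation. Their reads may therefore have been counted for the host, and low counts under their own IDs cannot tell. The results above are those of the host gene IDs.

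A number of these lncRNAs start back to back with a protein-coding gene, and 9 had such a neighbour within 1000 bases on the opposite strand. GAS5 and ZBTB37, whose starts lie 800 bases apart, both rose at the high dose, ZBTB37 from 403, 355 and 411 to 739, 816 and 734 normalised counts (high dose log2 fold change 0.97, SE 0.0862, DESeq2 adjusted p 2.06e-28). Neighbours of the hosts outside the naming rule are given too. SNHG1 rose, and SLC3A2, the heavy chain of several amino acid transporters, whose start is 51 bases away, rose more, from 3009, 3009 and 3012 to 8354, 8399 and 7919 (1.45, SE 0.039, DESeq2 adjusted p 2.13e-299). SNHG18 and SEMA5A (95 bases), a semaphorin, both fell, SEMA5A by 0.98 on the log2 scale (log2 fold change -0.98, SE 0.0374, DESeq2 adjusted p 2.00e-148).

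Other pairs went opposite ways. ZFAS1 rose while ZNFX1, an RNA helicase gene 248 bases away, fell (-0.34, SE 0.0465, DESeq2 adjusted p 3.52e-12). SNHG19 fell and TRAF7 (293 bases) rose (0.18, SE 0.0404, DESeq2 adjusted p 2.39e-05). WDR81, 651 bases from MIR22HG, rose (0.44, adjusted p 1.05e-12), and MIR22HG did not pass. For SNHG9, SNHG22 and SNHG31, which did not pass, the neighbours RPS2 (0.17), ACAA2 (-0.46) and BARD1 (-0.77) all did. SLC3A2, SEMA5A, ZBTB37 and BARD1 were DEGs.

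**Figure D4:**
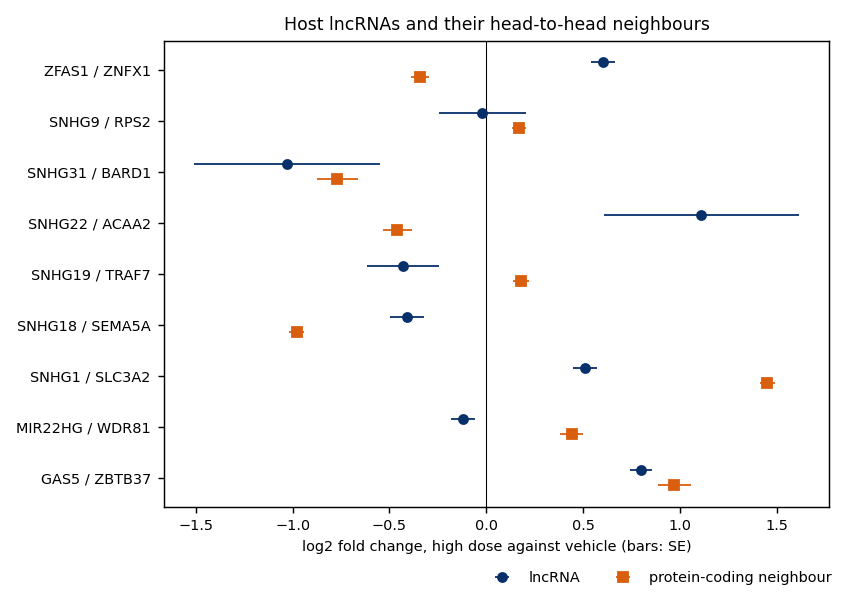
Log2 fold changes, high dose against vehicle, with standard errors, of 9 host lncRNAs (circles) and of the protein-coding genes that start within 1000 bases of them on the opposite strand (squares). SNHG1 and SLC3A2, and GAS5 and ZBTB37, lie on the same side of 0, while ZFAS1 at 0.60 and ZNFX1 at -0.34 lie on opposite sides.

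Overlapping genes bear on these counts. The libraries were made strand-specific, but the sources used here do not state whether the counting used the strand, and without it reads of a gene and its antisense partner cannot be told apart. Overlaps are those of GENCODE v44, while the study's methods name another annotation for the counting, so the counted gene models may differ. Genes on the other strand covered over 10% of the exon bases of 10 host lncRNAs, among them ZFAS1 (36.4%), SNHG7 (30.3%), MIR17HG (20.5%) and DANCR (14.1%) of the DEGs, and EPB41L4A-AS1 (51.2%) and SNHG16 (28.5%). The partners opposite MIR17HG and SNHG16, which lack a symbol, had no counts here. Most of the partners that had a symbol were scarce, EPB41L4A with a vehicle mean of 2.99 normalised counts and DIPK1B, opposite SNHG7, with 23.3, lower than the lncRNA in each case. ZNFX1, opposite ZFAS1, was abundant with 1827, and it fell while ZFAS1 rose. Without these 10 genes 5 DEGs were left at the high dose, 3 higher and 2 lower. By adjusted p alone the balance then turned from 13 higher and 9 lower to 7 higher and 8 lower, and the median log2 fold change from 0.08 to -0.06 (from 0.13 to -0.07 between high and medium dose). On the same strand, SNHG3 shares exons with RCC1, which fell from a mean of 1674 to 1202 normalised counts, and SNHG4 with MATR3, which went from 6490 to 4300, so how their reads were split is uncertain. SNHG14 shares exons with SNRPN, which went from 1111 to 987.

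The proteins and RNAs that act around these hosts were taken as lists from general knowledge, chosen with earlier results of these data known. For comparison, 46.5% of all tested genes differed at the high dose by adjusted p, 23.9% higher and 22.6% lower, and 18.2% were DEGs. Of 21 NMD factors, 14 differed at the high dose by adjusted p, 11 higher and 3 lower, with a median log2 fold change of 0.14, and RBM8A, a core protein of the exon junction complex, was the only DEG (-0.59, SE 0.0528, DESeq2 adjusted p 2.13e-27). The central helicase UPF1, named outside the rule, did not pass (-0.10, SE 0.0482, adjusted p 0.0935). Of 16 genes for decapping and decay from the 5′ end, 2 were higher and 7 lower, and PATL1, which joins decapping to the 5′ decay machinery, was the DEG (0.87, SE 0.056, adjusted p 5.92e-53). Of 20 5′TOP mRNAs other than ribosomal proteins, 13 were higher and 1 lower by adjusted p, all by less than 1.5-fold, with a median of 0.12. Of 17 genes for snoRNP core proteins and assembly, 3 were higher and 3 lower, again by less than 1.5-fold. Their share of 35.3% was below that of all genes.

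Protein-coding genes listed from general knowledge as NMD targets, some of them perhaps only through certain isoforms, moved far more than the host lncRNAs. All 21 differed at the high dose by adjusted p, against 46.5% of all genes. Of them 13 were DEGs with higher and 4 with lower counts, while 18.2% of all genes were DEGs. The median log2 fold change was 1.04. The largest changes were in ATF3 (4.73, SE 0.165, DESeq2 adjusted p 8.44e-179), DDIT3 (3.91, SE 0.0642), ASNS (2.87, SE 0.0406) and UPP1 (2.44, SE 0.0538), and for the last 3 the adjusted p was below what the tool can write. Many genes of that list, ATF3, DDIT3 and ASNS included, are also textbook targets of the stress factor ATF4, so the list is not one of NMD alone. Counts were made per gene, so isoforms sent to NMD were not separated from the other isoforms of a gene. The 4 lower DEGs fell outside the naming rule and were picked once the values were known: MAP3K14 (-1.58) and the splicing factors SRSF2 (-0.78), SRSF6 (-0.77) and SRSF3 (-0.65).

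Other lncRNAs served as a further view. Of 19 tested well known lncRNAs that host neither kind of small RNA, 3 were DEGs (15.8%, near the 18.2% of all genes). All 3 were higher: OIP5-AS1 (1.02, SE 0.0483, DESeq2 adjusted p 9.68e-97), MALAT1 (0.81, adjusted p 2.33e-37) and NEAT1 (0.79, adjusted p 1.55e-33), the last 2 being abundant nuclear RNAs. Of 17 tested hosts of other miRNAs, 1 was a DEG with higher and 2 with lower counts (17.6%, also near the share of all genes). Picked in the same way, these were MIR3142HG (2.05, DESeq2 adjusted p 0.00465, under 20 normalised counts on average), MIR155HG (-0.72, adjusted p 0.0265) and MIR210HG (-2.94, SE 0.313, adjusted p 6.58e-20), the host of the hypoxia miRNA miR-210, which went from 79.9, 96.4 and 87.4 to 10.4, 12.6 and 11.2 normalised counts. Of 9 genes for miRNA processing, DGCR8 was a DEG with lower (-0.84) and AGO4 with higher (0.62) counts (22.2%, against 18.2% of all genes).

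**Figure D5:**
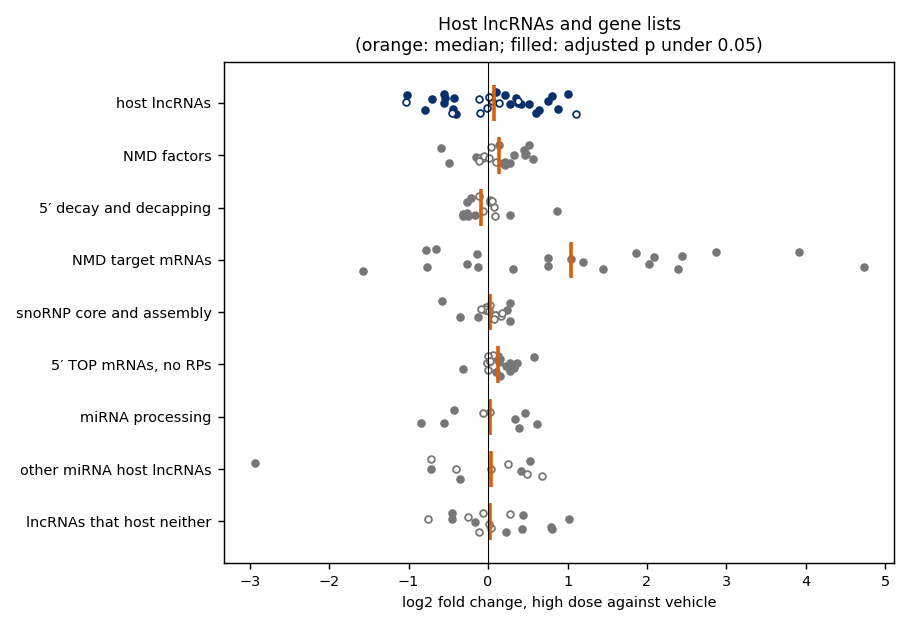
Log2 fold changes, high dose against vehicle, of the host lncRNAs and of genes in 8 lists from general knowledge, each point a gene that averaged 10 normalised counts or more. Filled points have a DESeq2 adjusted p under 0.05 and orange bars are medians. The median of the NMD target mRNAs is 1.04 and that of the host lncRNAs 0.08.

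Summed over all 34, the host lncRNAs took 0.104% ± 3.12e-04 (SD, n = 3) of a library's counts with vehicle, 0.0957% ± 0.00223 with the low dose, 0.0945% ± 0.00429 with the medium dose and 0.108% ± 0.0048 with the high dose. SNHG29, SNHG32 and SNHG16 made up 47.6% of that sum. The low and medium dose libraries all lay below the vehicle libraries, 2 of the 3 high dose libraries, at 0.108% and 0.113%, lay above them, and the other, at 0.104%, was level with the highest vehicle library. Genes encoded in mitochondria took 5.03 to 5.29% of counts with vehicle, 6.45 to 7.56% at the low dose, 10.6 to 10.8% at the medium dose and 8.99 to 9.29% at the high dose. As a share of nuclear-encoded counts the sums were 0.109%, 0.103%, 0.106% and 0.119% in the same order. On that scale 1 medium dose library (0.111%) and all 3 high dose libraries (0.114% to 0.125%) lay above the vehicle libraries, and the low dose libraries still lay below them.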

How the data were processed

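The authors made strand-specific libraries, checked the reads with FastQC 0.11.9, trimmed them with Trim Galore 0.6.5, aligned them with STAR 2.7.3a to GRCh38 and counted genes with RSEM 1.3.3, versions as in the submitters' processing notes (the study's methods give others for STAR and Trim Galore). The deposited table holds RSEM expected counts, of which 8.75% were not whole, and these were rounded. Symbols, exon lengths, overlaps and hosted RNAs came from GENCODE v44, which held 93.2% of the IDs. The study's methods name another annotation for the counting, so the counted gene models may differ from these. Genes at 0 throughout were dropped and 30808 were fitted with DESeq2 1.42.0 in R 4.3.3, on all 12 libraries with group as the only term, using two-sided Wald tests with Benjamini-Hochberg adjustment over all genes. Independent filtering at 0.05 left means under 1.72, 18.3 and 263 without an adjusted p at the high, medium and low dose. The edgeR 4.0.16 quasi-likelihood test was an alternative, and the fits were tested on simulated data. Replicates of a group differed by 1.99 to 3.55 in chi-square per degree of freedom, more than counting noise, and all were kept. At a mean normalised count of at least 100 the median SE of a high dose log2 fold change was 0.0699. Library totals and a count of 0 limit precision by counting error only.

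The host lncRNAs and gene lists were chosen with earlier results of these data known. Genes discussed one by one were those called in any comparison, the 6 highest per kb with vehicle, GAS5, ZFAS1, DANCR, EPB41L4A-AS1, MIR17HG and MIR22HG, the neighbours of these, and per list up to 4 DEGs with the largest changes and a mean of at least 100; others are marked. Sequences are from RefSeq. Other alternatives were fits with TMM factors, without independent filtering, with edgeR's filter first, with a replicate block, without mitochondrially encoded genes and without each library.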

Additional observations from a re-analysis of the deposited data

How the results depend on the processing

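For the 15 host lncRNAs named by rule, 1064 values under alternative fits kept their direction and side of the thresholds, 5 lost the call, 5 gained it and 6 changed sign. Calls at the high dose were lost for MIR17HG, SNHG17 and ZFAS1 without single libraries, and, outside these 15, gained for SNHG10, SNHG26 and SNHG4 without single libraries and for SNHG22 and SNHG31 in edgeR and after its filter (11 DEGs in each). GAS5 between high and medium dose passed 1.5-fold in 4 fits. Without the 10 host lncRNAs that genes on the other strand overlap by over 10%, DEGs numbered 5 at the high dose, and by adjusted p alone 5 at the medium dose and 11 between high and medium dose, fewer because fewer genes were counted. The edgeR test called 1 at the medium dose and 5 between high and medium dose. Leaving out 1 library at a time gave 4 to 7 host lncRNAs by adjusted p alone at the medium dose (4 without medium replicate 1) and 0 to 1 at the low dose. Small log2 fold changes that did not pass crossed 0 in such fits: DANCR at the low dose ranged from -0.10 to 0.05 and SNHG29 from -0.12 to 0.01, and at the medium dose SNHG16 ranged from -0.01 to 0.06 and SNHG29 from -0.07 to 0.06. The sum of host lncRNAs as a share of nuclear-encoded counts was 0.109% with vehicle, 0.103% at the low, 0.106% at the medium and 0.119% at the high dose, and without the 10 overlapped genes it was 0.0792%, 0.0727%, 0.0716% and 0.0807%. Same-numbered libraries did not deviate together in the pairs of groups compared (correlations -0.12 to 0.22, and not every library correlated best with its own number), so the numbers were not taken as pairs. Medium and low dose libraries, which meet only in the test over 4 groups, did (0.124 to 0.193, each best with its own number), and that test passed 18 with the block against 19. With a replicate block 9 host lncRNAs were DEGs at the high dose, 0 at the medium and low dose and 3 between high and medium dose, while by adjusted p SNHG19, SNHG26 and SNHG4 at the high dose (0.0524 to 0.0689), SNHG15 and ZFAS1 at the medium dose (0.0937 and 0.0951) and SNHG6 between high and medium dose (0.0511) no longer passed. Depth leaves changes of host lncRNAs under about 20 normalised counts undecided.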
